A study of Homo sapiens with 15 samples.

Results

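Doubling the cytarabine dose, from 0.5 to 1 µM over 4 days, changed a broad set of genes by small amounts in Molm-13 cells. The comparison used the count columns of 3 libraries at 1 µM against those of 3 libraries at 0.5 µM, which are 6 of the 15 libraries of the series, and every gene that passed a filter on low counts. That left 12355 of the 20375 genes in the deposited table. Molm-13 is an established human acute myeloid leukemia line of monocytic type that carries an internal tandem duplication in the receptor tyrosine kinase gene FLT3, so all results describe 1 leukemia line. Cells grew in RPMI 1640 medium with fetal bovine serum, and polyadenylated RNA was sequenced. Besides these 6 libraries, 3 control libraries came from untreated cells kept in culture for 4 days, and they are used here for starting levels. In 2 further groups of 3, cells had cytarabine at 0.5 or 1 µM for 3 days and then, with cytarabine removed, FL-Fc-DM1 at 1 nM for 24 hours, an agent the labels do not spell out. These 6 libraries gave a second dose step that shares no sample with the first. The labels' treatment text names THP-1 cells for these 2 groups, whereas the sample labels name Molm-13.

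Cytarabine is a deoxycytidine analog that cells phosphorylate and build into DNA, where it slows and stops replication forks. Stalled forks activate checkpoint kinases, the p53 pathway restrains the cell cycle, and damaged or misplaced DNA can be sensed by the interferon machinery of myeloid cells. Leukemia cells of monocytic type may also take on features of mature monocytes and macrophages under the drug. Replication-dependent histone mRNAs normally end in a stem-loop in place of a poly(A) tail, so libraries made by oligo(dT) capture see mainly their polyadenylated forms.

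Total counts of the 6 libraries ranged from 12.5 to 15.6 M (M for mega). Within a group, the median SD of log2 CPM (counts per 1000000 counts of the library, with TMM-scaled library sizes) over 8972 genes was 0.0573 at 0.5 µM and 0.0784 at 1 µM. The first principal component of the 6 libraries held 37.4% of the variance and separated the doses, and the second, with 21.3%, separated replicates 2 and 3 of the 1 µM group. Mitochondrially encoded genes took 6.62 ± 0.160% of counts at 0.5 µM and 6.68 ± 0.0396% at 1 µM (SD, n = 3). Of 7 B cell markers all were under 1 CPM in the 6 libraries, as were 8 of 9 erythroid, 7 of 9 stromal and epithelial, 6 of 11 T and NK cell and 4 of 7 megakaryocyte markers. TRAC, a T cell receptor segment, was the T and NK cell marker that passed the test, going from 3.48 ± 0.527 to 6.04 ± 0.254 CPM (control 19 CPM, log2 0.79 ± 0.16, adjusted p = 7.77e-04), and its part in the results was not tested. HBA2, HBG1, HBG2, KLF1, PF4, PPBP, COL1A2, COL3A1, EPCAM and KRT19 were at 0. The summed T and NK cell markers stood at 77.3 to 84.6 CPM at 0.5 µM and 84.4 to 85.4 CPM at 1 µM. In the same order, megakaryocyte markers summed to 7.10 to 7.31 and 8.77 to 10.3 CPM. Stromal and epithelial ones summed to 2.06 to 2.52 and 2.95 to 3.83 CPM. B cell markers summed to 1.60 to 2.52 and 1.16 to 1.59 CPM, and erythroid ones to 5.70 to 6.85 and 5.75 to 7.30 CPM. Besides TRAC, 1 megakaryocyte marker was called higher and 1 B cell marker lower. The 10 myeloid markers stood at 9865 to 10379 CPM and 7976 to 8185 CPM, mostly LYZ. In bulk RNA, fewer cells of a type and less RNA per cell cannot be told apart, and a difference is relative to the library's total. The labels do not state whether replicates are separate cultures, so p-values reflect only how these samples spread, and that spread may be technical.

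By edgeR's quasi-likelihood method, with p-values adjusted after Benjamini and Hochberg over all genes and a threshold of 0.05, the doses differed in 2390 of 12355 genes (19.3%), which are named called genes here. Of these, 1122 rose (9.08% of the genes tested) and 1268 fell (10.3%) at the higher dose. Most differences were small: 1488 called genes differed by less than 1.25-fold, 548 by 1.25- to 1.5-fold, 179 by 1.5- to 2-fold, and 175 by at least 2-fold, and the median fold of a called gene was 1.20. The 2-fold group leaned upward, with 136 genes higher (1.10% of the genes tested) and 39 lower (0.316%), as did the 1.5- to 2-fold group, with 97 higher and 82 lower. The groups below leaned downward, with 251 higher and 297 lower at 1.25- to 1.5-fold and 638 higher and 850 lower under 1.25-fold. The 3 values at 1 µM did not overlap the 3 at 0.5 µM in 4313 genes (34.9%), and in 2310 of the 2390 called genes. Calls followed the level at which a gene was counted. In the quartile of genes with the lowest level 8.38% were called, and 141 of the 2-fold calls lay there. In the quartile with the highest level 35.0% were called, with 6 of the 2-fold calls. Of its 3089 genes 500 rose and 580 fell. The gene lists below are set beside shares of all genes tested, which are not matched for level. The count of 2-fold calls was 115 without replicate 3 of the 0.5 µM group.

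**Figure D1:**
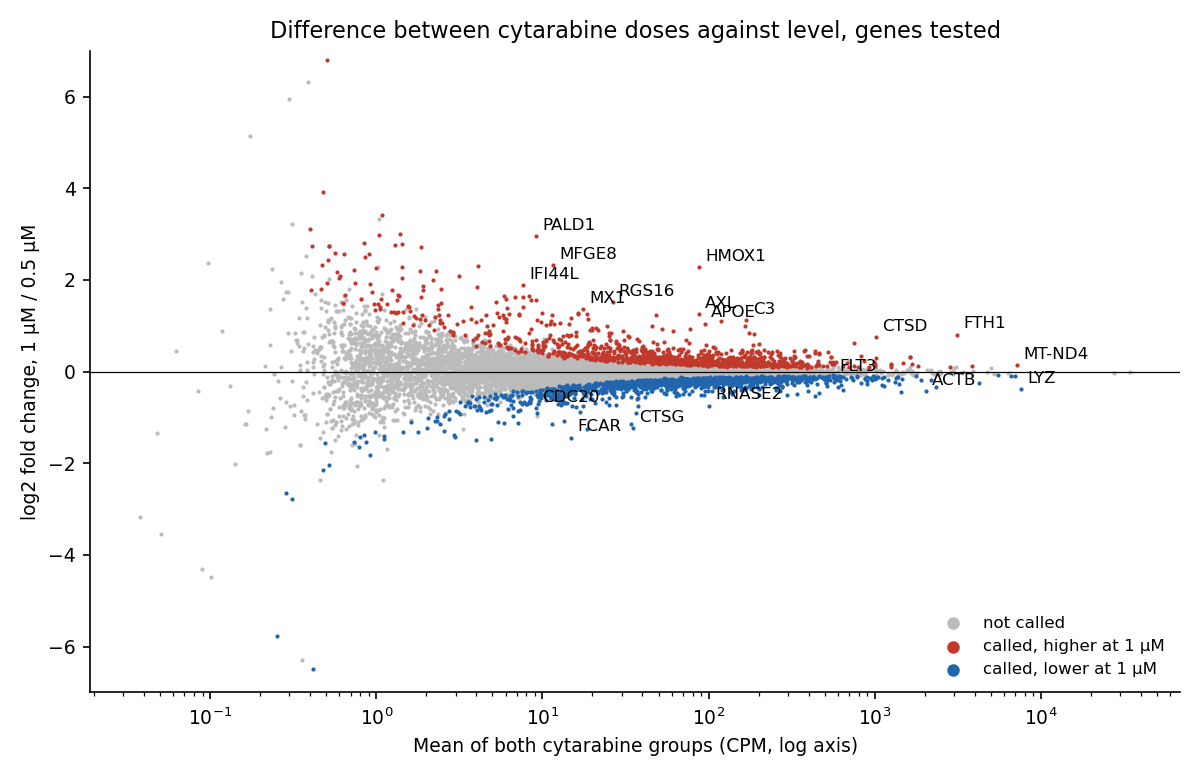
Log2 fold change between 1 and 0.5 µM cytarabine (vertical axis) against the mean level of both groups in CPM (horizontal log axis), 1 point for each of the 12355 genes tested. Red points are called higher at 1 µM and blue points called lower. Called genes with a large fold lie mostly at low levels, and HMOX1, FTH1, CTSD and LYZ stand out at high levels.

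The largest rises included genes of heme breakdown, phagocytosis and the cell surface. The largest rises and falls were ranked only among called genes with at least 10 CPM in either group and no overlap between doses. Their lack of overlap and small p follow from that choice and are no added support. PALD1, a phosphatase-like protein known from blood vessels, stood at 2.07, 2.31 and 1.83 CPM at 0.5 µM and 14.5, 16.9 and 17.1 CPM at 1 µM. Every library at 1 µM lay above every library at 0.5 µM, and the log2 fold change was 2.96 ± 0.15 (SE; adjusted p = 1.03e-13; 0.914 ± 0.150 CPM (SD, n = 3) in the control). HMOX1, heme oxygenase 1, which splits heme into biliverdin, iron and carbon monoxide, stood at 29.5, 30.2 and 29.1 CPM at 0.5 µM and 139, 151 and 144 CPM at 1 µM. That is a 4.88-fold rise with no overlap (log2 2.29 ± 0.06, adjusted p = 1.03e-19), from a level of 0.741 ± 0.338 CPM (SD, n = 3) in the control. MFGE8, a secreted bridge between phosphatidylserine on dying cells and integrins on phagocytes, stood at 4.15, 4.08 and 3.36 CPM at 0.5 µM and 18.1, 18.9 and 21.2 CPM at 1 µM. The groups again did not overlap (log2 2.32 ± 0.16, adjusted p = 8.70e-11, control 0.511 CPM).

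RGS16, a brake on G protein signalling, showed a different starting point. It stood at 14.3, 13.3 and 13.4 CPM at 0.5 µM and 38.3, 39 and 40.1 CPM at 1 µM, against 28.7 ± 0.929 CPM (SD, n = 3) in the control, so the lower dose lay below the control mean and the higher dose above it. Other rises of this size were IFI44L and DCANP1, given further on, A4GALT, which makes the Gb3 glycolipid (from 3.69 ± 0.0834 to 11.5 ± 1.98 CPM, listed at 0 in the control), ACP5, tartrate-resistant acid phosphatase of macrophages and osteoclasts (from 3.36 ± 0.177 to 10.4 ± 2.35 CPM, control 0.230 CPM), and COL7A1, a collagen chain (from 4.35 ± 0.763 to 12.8 ± 0.748 CPM, control 1.45 CPM). The adjusted p of the last 3 lay between 1.16e-07 and 4.75e-07 (edgeR), and none of their groups overlapped.

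The largest falls included genes of myeloid receptors and granules. FCAR, the Fc receptor for IgA, stood at 21.8, 20.9 and 22.5 CPM at 0.5 µM and 7.50, 7.99 and 8.62 CPM at 1 µM. Its 3 values at 1 µM lay below the 3 at 0.5 µM, a 2.71-fold fall (log2 -1.44 ± 0.13, adjusted p = 7.95e-09), and both doses lay above the 0.675 ± 0.295 CPM (SD, n = 3) in the control. CTSG, cathepsin G of azurophil granules, stood at 48.3, 48.7 and 50.2 CPM at 0.5 µM and 20.3, 20.5 and 22 CPM at 1 µM, with 208 ± 3.10 CPM (SD, n = 3) in the control. The fall was 2.35-fold without overlap (log2 -1.23 ± 0.06, adjusted p = 6.93e-14), and here the control was the highest group. PLXND1, a semaphorin receptor, fell from 26.3 ± 0.951 to 10.9 ± 1.26 CPM (control 24.5 CPM, log2 -1.26 ± 0.11, adjusted p = 2.63e-09). NAV3, a microtubule-associated protein, fell from 46.9 ± 0.494 to 21.4 ± 0.635 CPM (control 2.35 CPM, log2 -1.14 ± 0.08, adjusted p = 3.55e-11). F13A1, the A chain of coagulation factor XIII in monocytes, fell from 18.4 ± 1.59 to 8.72 ± 1.29 CPM (control 9.45 CPM), and LILRB2, an inhibitory receptor for MHC class I, fell from 12.1 ± 0.530 to 6.47 ± 0.833 CPM (control 3.44 CPM). FCGR1A, the high-affinity IgG receptor, ACY1, an aminoacylase, CDC20, an activator of the anaphase-promoting complex, and GLIPR2, a Golgi protein, completed the 10 largest falls, with log2 fold changes of -0.90, -0.89, -0.79 and -0.77. Control levels of these 4 were 29.1, 18.6, 58.2 and 13.8 CPM.

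Counted by the difference in CPM, which grows with transcript length and level, other genes lead. These too were ranked only among called genes without overlap between doses. FTH1, the ferritin heavy chain that stores iron, gained most, standing at 2256, 2328 and 2279.7 CPM at 0.5 µM and 4068, 3938 and 4006 CPM at 1 µM (log2 0.81 ± 0.03, adjusted p = 2.63e-17, control 555 CPM). The groups lay far apart relative to the scatter within them. MT-ND4, a mitochondrially encoded subunit of complex I, CTSD, the lysosomal protease cathepsin D, PSAP, the saposin precursor, and PLAC8 followed, with log2 fold changes of 0.14, 0.75, 0.33 and 0.32 from mean levels of 6789, 761, 1447 and 1447 CPM at 0.5 µM, where the control held 3811, 105, 226 and 158 CPM. LYZ, lysozyme of monocytes and granulocytes, lost most, standing at 8309, 8761 and 8801 CPM at 0.5 µM and 6519.9, 6746 and 6524 CPM at 1 µM (log2 -0.39 ± 0.03, adjusted p = 7.89e-11, control 379 CPM). SRGN, the proteoglycan serglycin of secretory granules, fell from 4613 ± 193 to 3893 ± 139 CPM (control 1519 CPM). The actin genes ACTB and ACTG1 fell from 2325 ± 36.4 to 1734 ± 67.4 CPM and from 2590.4 ± 48.1 to 2055 ± 48.4 CPM (control 1885 and 1974 CPM).

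**Figure D2:**
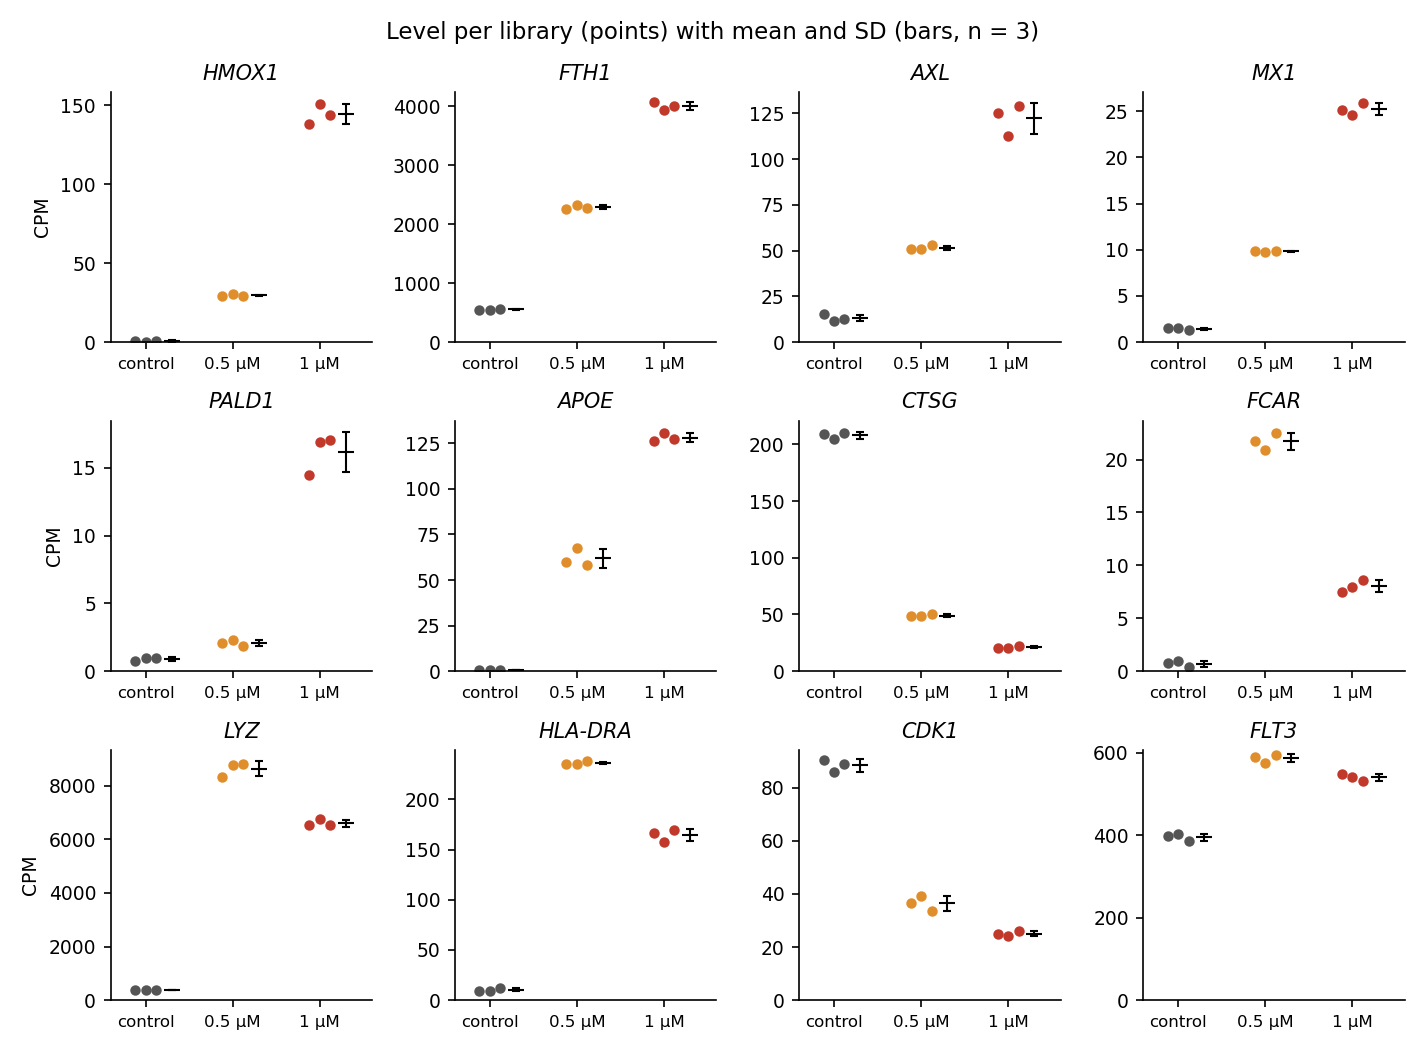
Level in CPM (vertical axes) of 12 genes in each library of the control, 0.5 µM and 1 µM cytarabine groups, 3 points a group, with the mean and its SD. HMOX1, FTH1, AXL, MX1, PALD1 and APOE were highest at 1 µM, and CTSG, FCAR, LYZ, HLA-DRA, CDK1 and FLT3 were lower at 1 than at 0.5 µM.

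Many interferon-stimulated effectors, the antiviral proteins that interferons induce, rose at the higher dose. Of 42 genes listed 40 were tested, 24 rose and none fell, against 9.08% and 10.3% of all genes tested. Their median log2 fold change was 0.64 (range -0.07 to 1.88), against -0.01 over all genes tested, and 10 rose at least 2-fold. Leaving out 1 library at a time left 22 to 24 rises. The effectors' share of all counts was 0.144 ± 0.00136% at 0.5 µM, 0.188 ± 0.00235% at 1 µM and 0.0710 ± 0.00119% in the control (SD, n = 3).

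MX1, a GTPase that blocks viral replication, stood at 9.85, 9.77 and 9.92 CPM at 0.5 µM and 25.2, 24.6 and 25.9 CPM at 1 µM. The doses did not overlap, and the rise was 2.56-fold (log2 1.36 ± 0.12, adjusted p = 6.20e-09, control 1.43 CPM). OAS2, which makes the second messenger that activates RNase L, stood at 11.5, 10.5 and 10.6 CPM at 0.5 µM and 24, 27 and 27.6 CPM at 1 µM (log2 1.26 ± 0.12, adjusted p = 3.37e-08, control 1.17 CPM). IFIT2, a binder of foreign RNA, stood at 12.6, 11.7 and 10.9 CPM at 0.5 µM and 25.4, 26.2 and 26 CPM at 1 µM (log2 1.14 ± 0.13, adjusted p = 4.73e-07, control 4.02 CPM). In both, all 3 libraries at 1 µM exceeded those at 0.5 µM. The largest rise of the list was IFI44L, from 3.25 ± 0.677 to 12 ± 0.884 CPM (log2 1.88 ± 0.19, adjusted p = 7.75e-08, control 0.280 CPM). Better counted members moved less in fold but with small error. SAMD9L, an inhibitor of translation in infected cells, stood at 90.0, 86.9 and 84.7 CPM at 0.5 µM and 125, 123 and 131 CPM at 1 µM (log2 0.54 ± 0.05, adjusted p = 4.00e-09, control 18.8 CPM). XAF1, a factor that promotes cell death, stood at 87.3, 89.3 and 93.3 CPM at 0.5 µM and 132, 124 and 128 CPM at 1 µM (log2 0.51 ± 0.04, adjusted p = 2.98e-09). Neither overlapped between doses, and XAF1 alone of these was highest without drug, at 187 ± 4.28 CPM (SD, n = 3) in the control. Other rises were PARP14, PARP9, OAS3, EIF2AK2, CMPK2, RSAD2, IFI44 and SAMD9, with log2 fold changes of 0.43, 0.64, 1.09, 0.45, 1.03, 0.79, 1.24 and 0.37. Among the members not called were BST2, MX2, IFI35 and IFITM3, with log2 fold changes of 0.05, -0.07, -0.02 and 0.49.

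Some genes that sense nucleic acids and carry the interferon signal rose as well. Of 38 listed 30 were tested, 12 rose and 3 fell (9.08% and 10.3% of all genes tested), with a median log2 fold change of 0.12. The falls are 10% of the list, near the share of all genes tested. The count of falls was 1 without replicate 1 of the 0.5 µM group or replicate 3 of the 1 µM group, and by TPM. IFIH1, the cytosolic sensor of long double-stranded RNA, rose from 37.6 ± 2.33 to 51.5 ± 3.67 CPM (log2 0.45 ± 0.07, adjusted p = 3.20e-05, control 17.9 CPM), and IRF8, a factor of the monocyte and dendritic lineage, rose from 232 ± 5.82 to 305 ± 8.90 CPM (log2 0.39 ± 0.03, adjusted p = 2.14e-09, control 196 CPM). STAT2, IRF9 and IRF7, which form or renew the type I interferon response, had log2 fold changes of 0.27, 0.41 and 0.73, each called. CGAS, the sensor of cytosolic DNA, had 0.27 (adjusted p = 3.77e-04). Its partner STING1, the adaptor that passes on the signal, went the other way, standing at 109.6, 112 and 109.8 CPM at 0.5 µM and 75.2, 73.3 and 82.7 CPM at 1 µM (log2 -0.52 ± 0.05, adjusted p = 3.66e-08, control 154 CPM). All 3 values at 1 µM lay below those at 0.5 µM.

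The promoters of the 3 effectors with the smallest p are shown. They differ in whether they hold the exact core letters of the interferon response element. Each runs from 250 bases before to 50 bases after the gene's start, 5′ to 3′ on the gene's strand, from RefSeq on GRCh38.p14: XAF1 at chr17:6755796-6756095 (plus strand), SAMD9L at chr7:93148336-93148635 (minus strand) and MX1 at chr21:41420308-41420607 (plus strand). Capitals mark the letters GAAANNGAA, the core of the element bound by interferon-activated factors, searched on both strands with N for any base.
MX1: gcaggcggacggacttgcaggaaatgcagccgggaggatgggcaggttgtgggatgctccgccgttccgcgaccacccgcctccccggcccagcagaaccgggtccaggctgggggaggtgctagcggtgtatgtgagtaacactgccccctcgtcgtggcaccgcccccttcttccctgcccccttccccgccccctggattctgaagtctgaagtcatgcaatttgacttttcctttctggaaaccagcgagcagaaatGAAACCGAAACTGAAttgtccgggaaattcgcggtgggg
XAF1: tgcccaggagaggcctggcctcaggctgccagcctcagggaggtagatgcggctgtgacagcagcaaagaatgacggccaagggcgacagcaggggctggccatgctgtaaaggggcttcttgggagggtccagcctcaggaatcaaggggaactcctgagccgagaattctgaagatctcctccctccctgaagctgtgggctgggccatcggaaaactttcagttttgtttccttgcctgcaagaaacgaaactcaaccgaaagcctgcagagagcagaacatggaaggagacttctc
SAMD9L: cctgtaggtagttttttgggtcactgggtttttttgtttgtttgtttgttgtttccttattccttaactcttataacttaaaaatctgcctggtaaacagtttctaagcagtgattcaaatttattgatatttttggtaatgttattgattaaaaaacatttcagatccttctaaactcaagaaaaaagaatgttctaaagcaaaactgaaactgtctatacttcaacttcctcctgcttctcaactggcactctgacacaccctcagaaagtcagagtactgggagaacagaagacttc
MX1 held 2 overlapping matches, starting 11 and 17 bases after the gene's start, and XAF1 and SAMD9L held none in this window. Only exact matches were searched, so a variant of the element would not be counted. A match was held by 77.4% of the 31 effectors with a promoter given, against 8.29% of all 27305 promoters of this length and 6.98% of the 9934 promoters of genes tested. The share was 80.0% in the 20 called effectors and 72.7% in the 11 not called. A match is a description of the letters only.

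Polyadenylated reads of replication-dependent histone genes, which supply chromatin during S phase, also rose, at low levels. Of 62 listed genes 53 were tested, 36 rose and none fell (9.08% and 10.3% of all genes tested), 52 of the 53 had a positive log2 fold change, the median was 1.40, and 26 rose at least 2-fold. Leaving out 1 library left 26 to 34 rises, and asking for at least 5 CPM left 18 members to test, of which 14 rose, with a median of 0.61. Their summed share of counts was 0.0317 ± 0.000264% at 0.5 µM, 0.0446 ± 0.00136% at 1 µM and 0.00957 ± 0.000336% in the control (SD, n = 3). H1-5, a linker histone, stood at 1.78, 1.00 and 1.3 CPM at 0.5 µM and 5.72, 7.51 and 7.30 CPM at 1 µM (log2 2.31 ± 0.25, adjusted p = 2.22e-07, control 0.0631 CPM). H3C4, a copy of histone H3, stood at 4.44, 3.46 and 4.58 CPM at 0.5 µM and 10.6, 11.7 and 10.7 CPM at 1 µM (log2 1.40 ± 0.16, adjusted p = 5.57e-07, control 0.880 CPM). Doses did not overlap in either. H2BC8, a copy of histone H2B, rose from 1.19 ± 0.333 to 5.07 ± 0.427 CPM (log2 2.08 ± 0.29, adjusted p = 9.47e-06, control 0.217 CPM). Reads of near-identical histone copies could be split between them by the counting, so single members are uncertain. Of 13 genes that process the 3′ end of histone mRNA none was called, and their median log2 fold change was 0.01 (range -0.13 to 0.20).

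**Figure D3:**
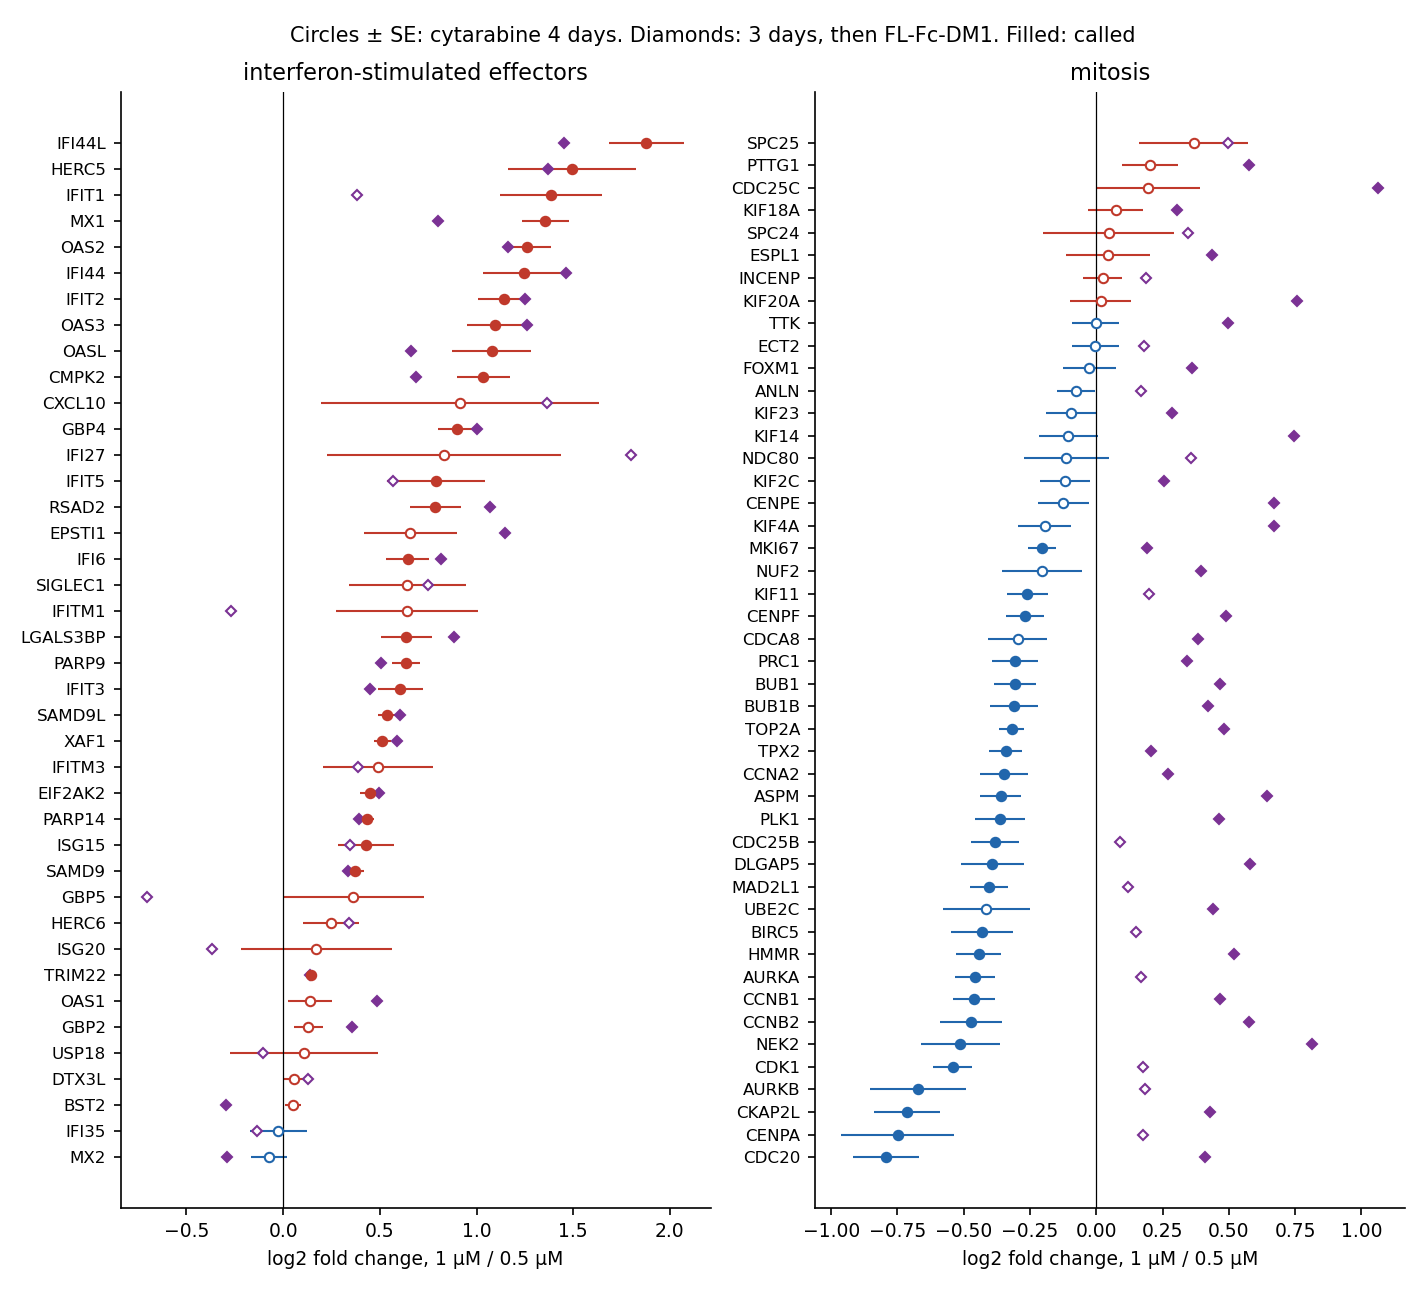
Log2 fold change ± SE between 1 and 0.5 µM cytarabine (horizontal axis) of the interferon-stimulated effectors tested and of the mitosis list, 1 row per gene. Circles are cytarabine for 4 days and diamonds cytarabine for 3 days then FL-Fc-DM1, and filled symbols are called. Circles and diamonds of the effectors lie mostly right of 0, and those of the mitosis list lie on opposite sides of 0 for most genes.

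Genes of mitosis, whose median log2 fold change against control was -1.65 at 0.5 µM and -1.88 at 1 µM, fell between the doses in many cases. Of 46 tested 25 fell and none rose (10.3% and 9.08% of all genes tested), with a median log2 fold change of -0.30 (range -0.79 to 0.37), and leaving out 1 library left 19 to 23 falls. By limma on the authors' TPM 12 fell. CDK1, the kinase that starts mitosis, stood at 36.7, 39.1 and 33.4 CPM at 0.5 µM and 24.7, 24.2 and 26.1 CPM at 1 µM. The groups did not overlap (log2 -0.54 ± 0.07, adjusted p = 4.45e-06), and both lay under the 88.4 ± 2.41 CPM (SD, n = 3) in the control. CDC20 stood at 11.1, 11.4 and 12.3 CPM at 0.5 µM and 6.61, 6.71 and 6.76 CPM at 1 µM (log2 -0.79 ± 0.12, adjusted p = 3.84e-05). TOP2A, the topoisomerase that untangles sister chromatids, stood at 165, 176 and 158 CPM at 0.5 µM and 132, 143 and 125 CPM at 1 µM (log2 -0.32 ± 0.05, adjusted p = 2.02e-05, control 438 CPM). In all 3 genes each library at 1 µM lay below each at 0.5 µM.

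The promoters of CDK1 and TOP2A are shown because they had 2 of the 3 smallest p in the list. They lie at chr10:60778081-60778380 (plus strand) and chr17:40417847-40418146 (minus strand) on GRCh38.p14, from RefSeq, over the same window, with capitals marking TTTGAA, the core of the cell cycle homology element, and CCAAT, the box bound by NF-Y, or their reverse complements.
CDK1: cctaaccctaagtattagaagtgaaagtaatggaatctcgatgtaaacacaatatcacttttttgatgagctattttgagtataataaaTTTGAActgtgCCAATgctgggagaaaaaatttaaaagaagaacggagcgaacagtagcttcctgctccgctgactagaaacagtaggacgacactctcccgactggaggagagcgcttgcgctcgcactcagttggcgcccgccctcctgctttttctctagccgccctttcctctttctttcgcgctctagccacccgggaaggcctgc
TOP2A: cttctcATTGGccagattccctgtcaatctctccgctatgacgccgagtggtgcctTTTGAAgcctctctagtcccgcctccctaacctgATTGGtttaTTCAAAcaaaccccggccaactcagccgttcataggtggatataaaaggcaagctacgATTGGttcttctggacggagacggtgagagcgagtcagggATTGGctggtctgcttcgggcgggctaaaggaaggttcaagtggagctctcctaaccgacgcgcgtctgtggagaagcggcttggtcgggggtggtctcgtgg
CDK1 held TTTGAA starting 161 bases and CCAAT 150 bases before the gene's start. TTTGAA was found in 70.0% of the 40 mitosis genes with a promoter given, against 15.4% of all promoters of this length and 10.3% of those of genes tested. CCAAT was found in 80.0%, against 35.7% and 37.1%.

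Some genes of DNA replication fell as well. Of 44 tested 14 fell and 1 rose (10.3% and 9.08% of all genes tested), with a median of -0.16, and 8 fell by TPM. The rise was lost without replicate 2 or 3 of the 0.5 µM or replicate 1 or 3 of the 1 µM group. MCM4, MCM6 and MCM3, subunits of the helicase that opens the origin, had log2 fold changes of -0.28 ± 0.04, -0.35 ± 0.05 and -0.30 ± 0.05. MCM6 went from 78.6 ± 3.99 to 61.8 ± 3.04 CPM (control 194 CPM, adjusted p = 1.84e-05). The call of MCM4 was lost by TPM. Among 29 genes of recombination, the Fanconi pathway and checkpoints 5 fell and 1 rose. That is 20.7% called either way, near the 19.3% of all genes tested, and the falls are 17.2% of the list against 10.3%. Of the falls, 3 were left without replicate 3 of either dose and 3 by TPM. CHEK1, the checkpoint kinase of stalled forks, fell from 17.4 ± 0.923 to 12.5 ± 0.676 CPM (log2 -0.48 ± 0.09, adjusted p = 6.77e-04, control 45.5 CPM), and FANCD2, which marks crosslinks for repair, rose from 45.8 ± 2.77 to 56.7 ± 4.00 CPM (log2 0.31 ± 0.07, adjusted p = 0.00171, control 69.7 CPM). In the list of G1 cyclins, E2F and RB genes 7 of 24 fell, 3 by TPM, and 2 rose. The rises are 8.33% of the list, near the 9.08% of all genes tested. CCND3 and CCND2, D-type cyclins that drive entry to S phase, fell (log2 -0.42 ± 0.05 and -0.34 ± 0.06), and RB1 and CDKN1A, which hold cells in G1, rose (log2 0.23 ± 0.04 and 0.16 ± 0.03). Adjusted p ranged from 2.55e-06 for CCND3 to 2.78e-04 for CDKN1A. Control levels of these 4 were 155, 74, 319.8 and 284 CPM.

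Targets of p53 rose in 14 of 37 cases and fell in 1 (9.08% and 10.3% of all genes tested), with a median of 0.16. MDM2, the ubiquitin ligase that limits p53, stood at 919, 921 and 907 CPM at 0.5 µM and 1091, 1180.1 and 1101 CPM at 1 µM (log2 0.30 ± 0.03, adjusted p = 4.47e-07, control 293 CPM). RRM2B, the ribonucleotide reductase subunit that p53 induces for DNA repair, rose from 726 ± 5.03 to 917 ± 18.1 CPM (log2 0.34 ± 0.03, adjusted p = 7.13e-08, control 548 CPM). TP53INP1, a stress protein, rose from 399.6 ± 8.87 to 529 ± 11.6 CPM (log2 0.41 ± 0.04, adjusted p = 4.37e-08, control 71.7 CPM). None of the 3 overlapped between doses. Of 17 genes of the BCL2 family, which sets the threshold of mitochondrial cell death, 3 rose and 1 fell, 23.5% called either way against 19.3% of all genes tested, and leaving out 1 library gave 0 to 2 falls. PMAIP1, encoding the death-promoting NOXA, rose from 22.8 ± 2.03 to 34.6 ± 1.62 CPM (log2 0.60 ± 0.07, adjusted p = 1.13e-06, control 59.2 CPM), BCL2, a survival protein and the target of venetoclax, rose from 167 ± 5.15 to 209 ± 8.07 CPM (log2 0.32 ± 0.04, adjusted p = 4.09e-07, control 727 CPM), and BMF had a log2 fold change of 0.30 ± 0.04 (control 78.9 CPM).

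Of 21 genes of cytarabine transport and metabolism, 2 rose and 5 fell, with a median of -0.09 and a range of -1.38 to 0.34. Of the falls, 1 was at least 2-fold. The rises are 9.52% of the list, near the 9.08% of all genes tested, and 1 of them was left without replicate 1 or 2 of the 0.5 µM group or replicate 3 of the 1 µM group and by TPM, while 10.3% of all genes tested fell. DCK, the kinase that makes the first phosphate of cytarabine, stood at 52.6 CPM at 0.5 µM and 48.4 CPM at 1 µM and was not called (log2 -0.12, adjusted p = 0.271). SAMHD1, which hydrolyses the active triphosphate, stood at 468, 458 and 488 CPM at 0.5 µM and 463, 478 and 477 CPM at 1 µM and was not called either (log2 0.00 ± 0.03, adjusted p = 0.958). SLC29A1, the carrier through which cytarabine enters, had a log2 fold change of -0.08 (adjusted p = 0.438). RRM1, the large subunit of ribonucleotide reductase, fell from 73 ± 0.867 to 59.1 ± 4.62 CPM (log2 -0.30 ± 0.06, adjusted p = 3.64e-04, control 98.3 CPM). NME1, a nucleoside diphosphate kinase, fell from 50.1 ± 0.813 to 39.3 ± 1.20 CPM (log2 -0.35 ± 0.05, control 83.7 CPM). DCK and SLC29A1 lay outside the rule for named genes and were chosen for their roles after their values were seen.

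Monocyte and macrophage genes, a programme whose median stood 2.47 above control on the log2 scale at 0.5 µM and 2.34 at 1 µM, fell in 19 of 39 cases and rose in 3 between the doses (10.3% and 9.08% of all genes tested). FCGR1A stood at 48.4, 47.1 and 47.8 CPM at 0.5 µM and 26.7, 27.7 and 22.5 CPM at 1 µM (log2 -0.90 ± 0.07, adjusted p = 1.09e-09). AIF1, an actin-bundling protein of macrophages, stood at 139.9, 149 and 148 CPM at 0.5 µM and 99.3, 99.1 and 99.1 CPM at 1 µM (log2 -0.55 ± 0.04, adjusted p = 1.05e-10, control 117 CPM). Neither overlapped between doses. CEBPB, a transcription factor of macrophage and stress genes, rose from 41 ± 4.81 to 57.8 ± 1.71 CPM (log2 0.50 ± 0.08, adjusted p = 2.54e-05, control 20.3 CPM), as did LILRB1, another inhibitory receptor for MHC class I (log2 0.26 ± 0.07, control 21.6 CPM). Of 10 S100 genes, calcium-binding proteins of myeloid cells, 5 fell and none rose, and 3 falls were left without replicate 2 of the 0.5 µM or replicate 1 of the 1 µM group. S100A9 fell from 44.8 ± 3.84 to 29.7 ± 0.892 CPM (log2 -0.59 ± 0.07, adjusted p = 5.82e-07, control 0.510 CPM). Its partner S100A8 went from 17.1 ± 0.614 to 12.1 ± 2.22 CPM (log2 -0.49 ± 0.12, control 0.338 CPM).

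The granulocyte programme fell in 10 of 20 cases and rose in none (10.3% and 9.08% of all genes tested), with a median of -0.43. Besides CTSG, AZU1, the granule protein azurocidin, stood at 525, 521 and 511 CPM at 0.5 µM and 366, 360.4 and 349 CPM at 1 µM (log2 -0.53 ± 0.04, adjusted p = 1.02e-10). RNASE2, the eosinophil-derived neurotoxin, stood at 121, 124 and 130.2 CPM at 0.5 µM and 71.7, 79.2 and 74.2 CPM at 1 µM (log2 -0.74 ± 0.06, adjusted p = 3.63e-10). Both fell without overlap. Control levels were 274 CPM for AZU1 and 78.2 CPM for RNASE2.

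Complement and Fc receptor genes split, with 5 rises and 6 falls in 24 (9.08% and 10.3% of all genes tested), of which 3 of the falls were left without replicate 3 of the 0.5 µM group and by TPM. C3, the central complement protein, stood at 109.9, 105 and 104 CPM at 0.5 µM and 233, 222 and 239.7 CPM at 1 µM (log2 1.13 ± 0.05, adjusted p = 1.05e-14, control 6.06 CPM). It rose 2.19-fold, with no overlap. FCGRT, the neonatal Fc receptor, also rose (log2 0.22 ± 0.05, control 18 CPM). Integrins and other adhesion genes split evenly, with 7 rises, 4 by TPM, and 7 falls in 20. ITGA6, a laminin receptor subunit, rose from 77.7 ± 2.47 to 116 ± 3.90 CPM (log2 0.58 ± 0.05, control 7.15 CPM), as did ITGA5, the fibronectin receptor subunit (log2 0.23 ± 0.03, control 222 CPM), and PLXNC1, a semaphorin receptor (log2 0.52 ± 0.06, control 33.7 CPM). ITGAM, the CD11b chain of the myeloid integrin, fell from 183 ± 4.61 to 138 ± 2.08 CPM (log2 -0.41 ± 0.05, control 7.72 CPM), and ITGAL, the CD11a chain, had a log2 fold change of -0.19 ± 0.03 (control 1221 CPM). The highest adjusted p of these 5 was 2.69e-05 (edgeR).

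Antigen presentation genes did not share a direction. Of 13 MHC class II genes 2 rose and 4 fell (9.08% and 10.3% of all genes tested), with a median of -0.03 that changed sign between processing alternatives. HLA-DRA, the alpha chain of HLA-DR, stood at 236, 235 and 238 CPM at 0.5 µM and 167, 158 and 169.9 CPM at 1 µM (log2 -0.52 ± 0.04, adjusted p = 1.09e-09, control 10.3 CPM). Its doses did not overlap. CD74, the invariant chain that fills the class II groove, fell from 783 ± 3.17 to 694 ± 10.2 CPM (log2 -0.17 ± 0.03, control 157 CPM), whereas IFI30, a reductase that opens antigens in lysosomes, rose from 193 ± 5.75 to 239 ± 6.97 CPM (log2 0.31 ± 0.04, control 18.1 CPM). Of 18 MHC class I genes 4 rose and 3 fell. HLA-C and HLA-B rose (log2 0.35 ± 0.05 and 0.15 ± 0.03, control 135 and 470.4 CPM), and B2M, the shared light chain, fell (log2 -0.15 ± 0.03, control 1249 CPM). Reads of HLA genes can be shared between family members, so these directions are uncertain. Of 19 dendritic cell genes 6 rose and 4 fell. Without replicate 3 of the 0.5 µM group these counts were 3 and 2, without replicate 1 of either dose 2 fell, and by TPM 2 rose and none fell. CCR7, the receptor that guides dendritic cells to lymph nodes, rose from 5.80 ± 0.367 to 12.7 ± 0.619 CPM (log2 1.13 ± 0.16, adjusted p = 1.71e-05, control 0.912 CPM). Among 24 genes of NF-kappaB and inflammation there were 5 rises and 2 falls. Leaving out a replicate of the 0.5 µM group gave 2 or 3 rises, and the falls ranged from 0 without replicate 3 to 4 without replicate 1 of the 1 µM group. CXCL8, which attracts neutrophils, rose from 55.7 ± 3.35 to 90.0 ± 7.17 CPM (log2 0.70 ± 0.07, adjusted p = 4.80e-08, control 2.93 CPM).

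Receptors and bridges for the uptake of lipids and dying cells rose in 8 of 24 cases and fell in none (9.08% and 10.3% of all genes tested), with a median of 0.22, and 1 fell without replicate 2 of either dose. AXL, a receptor kinase that binds dying cells through GAS6, stood at 50.7, 50.8 and 53 CPM at 0.5 µM and 125, 113 and 129 CPM at 1 µM (log2 1.25 ± 0.08, adjusted p = 4.71e-12, control 13.2 CPM). OLR1, the receptor for oxidised lipoprotein, stood at 9.41, 8.92 and 10.2 CPM at 0.5 µM and 24, 22.9 and 22.7 CPM at 1 µM (log2 1.29 ± 0.10, adjusted p = 1.21e-09, control 0.0879 CPM). With MFGE8, these were 3 genes whose doses lay clear of each other. In the list of genes linked to the sterol receptor LXR, 5 of 17 rose and 3 fell, with 2 or 3 rises left without any replicate of the 0.5 µM group or without replicate 1 of the 1 µM group, and 2 by TPM. APOE, the lipid carrier that macrophages secrete, stood at 59.6, 67.8 and 58.3 CPM at 0.5 µM and 126, 131 and 127 CPM at 1 µM (log2 1.05 ± 0.06, adjusted p = 4.71e-12, control 0.657 CPM). CYP27A1, which makes an oxysterol ligand of LXR, fell from 177 ± 6.11 to 151 ± 0.892 CPM (log2 -0.23 ± 0.04, adjusted p = 2.07e-04, control 1.47 CPM), and SCD, which desaturates fatty acids, fell from 168 ± 6.27 to 134 ± 4.70 CPM (log2 -0.32 ± 0.04, control 766 CPM).

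Heme, iron and NRF2 genes rose in 12 of 31 cases and fell in 3, where 9.08% of all genes tested rose and 10.3% fell, so the falls, 9.68% of the list, were near that share. After HMOX1 and FTH1 came TFRC, the transferrin receptor for iron uptake, which stood at 225, 220.2 and 214 CPM at 0.5 µM and 306, 297 and 295 CPM at 1 µM (log2 0.45 ± 0.03, adjusted p = 5.64e-10, control 182 CPM). TXN, thioredoxin, fell from 151 ± 6.61 to 124 ± 6.62 CPM (log2 -0.29 ± 0.05, adjusted p = 3.30e-04, control 173 CPM). Lysosome genes rose in 11 and fell in 7 of 42 cases, with 3 or 4 falls left without replicate 1 or 3 of the 0.5 µM or replicate 2 of the 1 µM group, and 3 by TPM. CTSD stood at 769, 729 and 783 CPM at 0.5 µM and 1317, 1220.2 and 1309 CPM at 1 µM (log2 0.75 ± 0.04, adjusted p = 4.74e-14). CTSH, a further cathepsin, rose from 34.3 ± 2.33 to 47.4 ± 2.14 CPM (log2 0.47 ± 0.07, control 12 CPM), and GUSB, the beta-glucuronidase, fell from 52.1 ± 1.81 to 38.7 ± 3.10 CPM (log2 -0.43 ± 0.07, control 33.7 CPM). Cholesterol and fatty acid genes rose in 2 and fell in 7 of 30 cases, of which 2 falls were left without replicate 1 of the 0.5 µM group and by TPM, and 1 rise without replicate 2 of the 0.5 µM or replicate 3 of the 1 µM group. STARD4, a sterol carrier, rose (log2 0.29 ± 0.05, control 81.6 CPM).

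Many growth genes fell in small steps. Among MYC targets and ribosome biogenesis genes 21 of 36 fell and none rose (10.3% and 9.08% of all genes tested), with a median of -0.19 and a range of -0.38 to 0.19, and 12 fell by TPM. MYC itself, the transcription factor of cell growth, stood at 285, 275 and 299 CPM at 0.5 µM and 228, 216 and 228 CPM at 1 µM (log2 -0.36 ± 0.03, adjusted p = 3.92e-08, control 637 CPM). NCL and NOLC1, nucleolar proteins, fell from 693 ± 23.6 to 566 ± 23.6 CPM and from 201 ± 5.07 to 165 ± 5.93 CPM (log2 -0.29 ± 0.04 and -0.28 ± 0.04, control 895 and 278 CPM). None of the 3 overlapped between doses. The 79 cytosolic ribosomal protein genes had a median of -0.03, with 4 rises and 5 falls, 5.06% and 6.33% of the list. Rises numbered 1 or 2 without replicate 1 or 3 of either dose, and falls 2 or 3 without replicate 2 of the 0.5 µM or replicate 1 of the 1 µM group. Nucleotide synthesis genes fell in 12 of 28 cases, 7 by TPM, and rose in 1, with a median of -0.17, among them PAICS and IMPDH2 of purine synthesis (log2 -0.29 ± 0.04 and -0.24 ± 0.03, control 297 and 309.6 CPM).

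Genes of glycolysis and hypoxia fell in 14 of 32 cases and rose in 4 (10.3% and 9.08% of all genes tested), with a median of -0.12, and 8 fell by TPM. HK2, the inducible hexokinase, stood at 82.2, 81.4 and 83 CPM at 0.5 µM and 59.6, 60.9 and 56.5 CPM at 1 µM (log2 -0.48 ± 0.05, adjusted p = 2.76e-08, control 124 CPM). TXNIP and ARRDC4, arrestin-like proteins that respond to glucose, fell from 1654 ± 30.7 to 1219.8 ± 41.9 CPM and from 178 ± 1.13 to 134 ± 3.59 CPM (log2 -0.44 ± 0.03 and -0.41 ± 0.04, control 1121 and 88.7 CPM). The glucose transporter SLC2A1 rose from 37.3 ± 2.37 to 47.9 ± 4.20 CPM (log2 0.36 ± 0.08, adjusted p = 0.00119, control 32.1 CPM). Tubulins fell in 5 of 14 cases and rose in none, with log2 fold changes of -0.42 ± 0.03 for TUBA1B and -0.47 ± 0.06 for TUBA1A, near-identical alpha chains whose reads can be shared, and -0.24 ± 0.03 for TUBB (control 589, 61.1 and 635 CPM).

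Stress lists were mixed. Targets of ATF4, the factor of the integrated stress response, rose in 10 and fell in 5 of 36 cases (9.08% and 10.3% of all genes tested). Falls numbered 1 to 3 without replicate 1 or 2 of either dose, 3 by TPM and 1 with only the groups compared. ATF3 and NUPR1 rose, from 3.12 ± 0.509 to 7.56 ± 0.987 CPM and from 6.27 ± 0.480 to 13.2 ± 0.243 CPM (log2 1.28 ± 0.18 and 1.08 ± 0.14, control 10.7 and 4.18 CPM), and SHMT2, of mitochondrial serine use, fell (log2 -0.27 ± 0.05, control 320.4 CPM). Of 32 genes of the unfolded protein response and heat shock 1 rose, HERPUD1 (log2 0.37 ± 0.06, control 85 CPM), and 6 fell, among them the chaperones HSPA8 and HSP90AB1 and the factor XBP1 (log2 -0.30 ± 0.03, -0.28 ± 0.03 and -0.39 ± 0.04, control 1357, 1840.3 and 579 CPM). Of 9 metallothionein and zinc genes 1 rose and 4 fell, and of 13 mitochondrially encoded genes 3 rose and 1 fell. Among the latter 1 rose without replicate 1 of the 0.5 µM group, none fell without its replicate 3, and 6 rose with no filter on low counts or with a replicate block.

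FLT3, which carries the duplication in this line, stood at 591, 576 and 594 CPM at 0.5 µM and 548, 541 and 533 CPM at 1 µM, against 395 ± 8.56 CPM (SD, n = 3) in the control. The 3 values at 1 µM lay below the 3 at 0.5 µM by 1.09-fold (log2 -0.12 ± 0.03, adjusted p = 0.00881), and the call was lost by TPM. Of 24 genes of STAT5 and growth factor receptor output, 8 fell, 4 by TPM, and 1 rose (10.3% and 9.08% of all genes tested). PIM1, a survival kinase induced by STAT5, stood at 349, 341 and 346 CPM at 0.5 µM and 245, 242 and 244 CPM at 1 µM (log2 -0.50 ± 0.04, adjusted p = 7.89e-11, control 258 CPM). KIT, the stem cell factor receptor, stood at 8.00, 7.92 and 8.70 CPM at 0.5 µM and 17.6, 16.7 and 17.3 CPM at 1 µM (log2 1.07 ± 0.12, adjusted p = 2.96e-07, control 1.01 CPM). Neither overlapped, and they moved in opposite directions. MAPK feedback and immediate early genes rose in 6 and fell in 3 of 28 cases, and the falls, 10.7% of the list, were near the 10.3% of all genes tested. DUSP4, a MAP kinase phosphatase, rose from 2.73 ± 0.556 to 7.83 ± 0.214 CPM (log2 1.52 ± 0.17, adjusted p = 4.09e-07, control 0.571 CPM). Stem cell and KMT2A-fusion targets rose in 3 and fell in 5 of 23 cases. Falls numbered 3 without replicate 1 or 3 of either dose and 1 by TPM. SATB1, a chromatin organiser, rose (log2 0.27 ± 0.04, control 440.0 CPM), and LMO2, a stem cell cofactor, fell (log2 -0.33 ± 0.05, control 132 CPM).

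**Figure D4:**
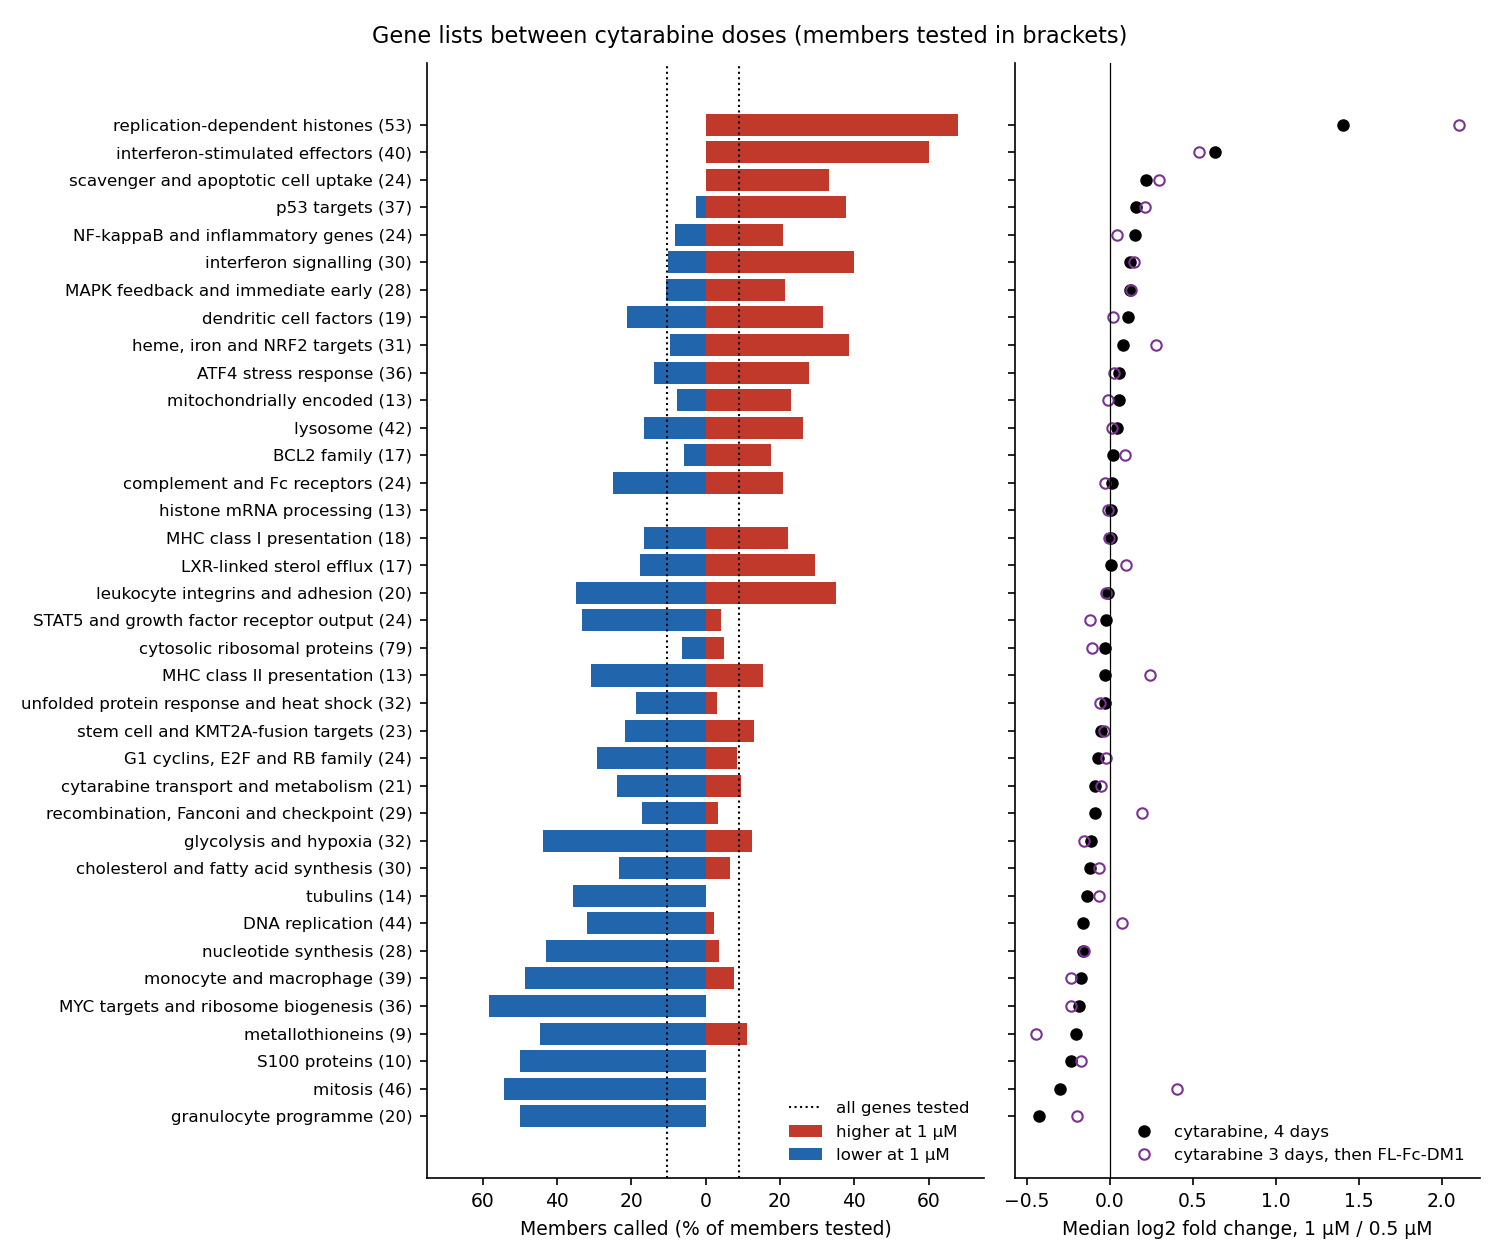
Left, percent of tested members called higher (red) or lower (blue) at 1 µM for each gene list with at least 9 members tested, with dotted lines at 9.08% and 10.3%, the shares of all genes tested. Right, median log2 fold change of each list, filled for cytarabine over 4 days and open for cytarabine then FL-Fc-DM1. Histones and interferon effectors lie highest, and the mitosis list has medians of -0.30 and 0.40 in the 2 settings.

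A second dose step was measured under other conditions, in cells that had 3 days of cytarabine at 1 or 0.5 µM and then FL-Fc-DM1. Whether these libraries share pretreated cultures with those of the first step was not tested, so the second step cannot be taken as an independent repeat. In the second step 3494 genes (28.3%) were called, 1770 higher (14.3%) and 1724 lower (14.0%) at the higher pretreatment dose, by the same edgeR test. Both steps called 1546 genes, of which 1492 moved in the same direction (62.4% of the first list and 42.7% of the second), 759 higher and 733 lower. Of the 175 genes that differed at least 2-fold between cytarabine doses, 112 were also called in the same direction after FL-Fc-DM1. These were 99 of the 136 rises and 13 of the 39 falls, where 14.3% and 14.0% of all genes tested were called higher and lower. Of the 175 genes, 141 lay in the quartile of lowest level, and the levels of the rises and the falls were not compared. Over the 2390 genes called between cytarabine doses, Pearson's r of the log2 fold changes was 0.775 and Spearman's rho 0.795, and over all genes tested they were 0.425 and 0.512, as a description across genes, which are not independent replicates. HMOX1 stood at 50.8, 49.5 and 52.8 CPM at 0.5 µM and 192, 192 and 206 CPM at 1 µM pretreatment (log2 1.95 ± 0.05, adjusted p = 8.01e-19). PALD1 stood at 4.10, 4.16 and 3.70 CPM at 0.5 µM and 35.3, 34.1 and 30.2 CPM at 1 µM (log2 3.06 ± 0.13, adjusted p = 1.51e-15). Both had wide gaps between the doses here too. FCAR fell by a log2 fold change of -1.43 ± 0.13 and CTSG by one of -0.91 ± 0.06. The interferon-stimulated effectors rose in 24 of 40 cases and fell in 2, or in 1 without any 1 replicate but the first of the 0.5 µM pretreatment group (14.3% and 14.0% of all genes tested), with a median of 0.54, and the histone genes rose in 45 of 53 cases with a median of 2.10.

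The 2 dose steps differed in 379 genes (3.07%) by a test of the difference itself, an interaction term in the same edgeR fit. For 264 of these the change at 1 µM lay lower without FL-Fc-DM1 than after it, for 115 higher. Of the genes that differed, 199 had been called between cytarabine doses. In the mitosis list the difference was called, with the step after FL-Fc-DM1 higher, in 30 of its 46 members, and 27 to 31 when 1 library was left out. After FL-Fc-DM1, 32 of the 46 were higher and none lower at 1 µM pretreatment, with a median of 0.40. TOP2A stood at 158, 155 and 148 CPM at 0.5 µM and 224, 214 and 206 CPM at 1 µM pretreatment (log2 0.48 ± 0.05, adjusted p = 1.44e-08; difference between steps -0.80 ± 0.07, adjusted p = 7.60e-08). CDC20 stood at 25.2, 26.7 and 21.2 CPM at 0.5 µM and 30.5, 35.8 and 30.3 CPM at 1 µM (log2 0.41 ± 0.09, adjusted p = 0.00108; difference -1.20 ± 0.15, adjusted p = 2.89e-05). In TOP2A and CDC20 the 1 µM libraries were above the 0.5 µM libraries after FL-Fc-DM1 and below them without it. CDK1 stood at 33.9, 33.4 and 31.8 CPM at 0.5 µM and 34.5, 40.2 and 37.1 CPM at 1 µM and was not called after FL-Fc-DM1 (log2 0.18 ± 0.07, adjusted p = 0.067), and its steps differed by -0.72 ± 0.10 (adjusted p = 9.92e-05). In the replication and recombination lists 7 members each differed in the same direction, against 3.07% of all genes tested in either direction. The 7 of the replication list became 2 or 3 without replicate 1 or 2 of the 0.5 µM group or any replicate of that dose followed by FL-Fc-DM1, 3 by TPM and 2 with only the groups compared. The 7 of the recombination list became 3 by TPM. Cytarabine was removed for the last 24 hours in the FL-Fc-DM1 groups, so its removal and the agent cannot be told apart.

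HLA-DRA differed too. After FL-Fc-DM1 it stood at 385, 388 and 385 CPM at 0.5 µM and 383, 395 and 411 CPM at 1 µM pretreatment (log2 0.04 ± 0.04, adjusted p = 0.521), and its steps differed by -0.56 ± 0.06 (adjusted p = 1.71e-06). RNASE2 stood at 146, 145 and 154 CPM at 0.5 µM and 132, 128 and 148 CPM at 1 µM (log2 -0.12 ± 0.05, adjusted p = 0.0819), with a difference between steps of -0.62 ± 0.08 (adjusted p = 2.58e-05). Neither was called between doses after FL-Fc-DM1. The rise of C3 was larger after FL-Fc-DM1 (log2 1.58 ± 0.05) than without it, and that of HMOX1 smaller, with differences of -0.45 ± 0.07 and 0.34 ± 0.08 (adjusted p = 3.11e-04 and 0.0188). FLT3 fell by 0.26 on the log2 scale after FL-Fc-DM1, and the difference between its steps was 0.14 ± 0.05 (adjusted p = 0.102).

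**Figure D5:**
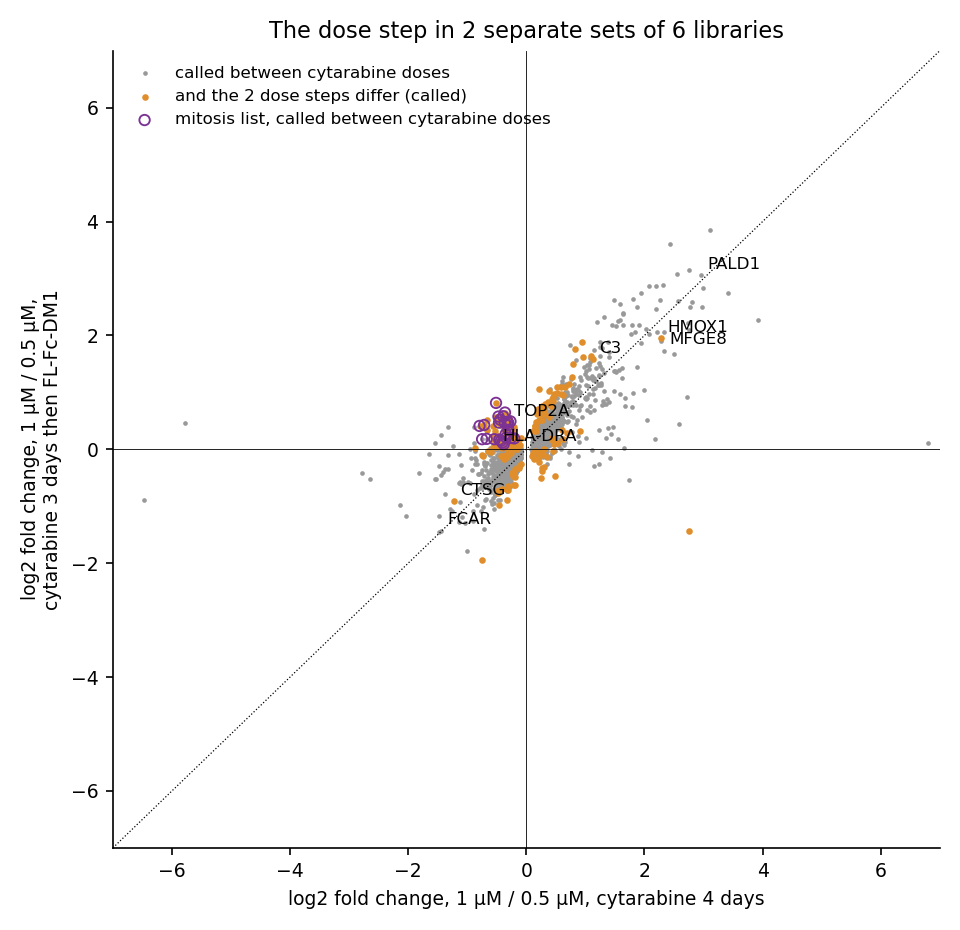
Log2 fold change between doses without FL-Fc-DM1 (horizontal axis) and after it (vertical axis) for the 2390 genes called between cytarabine doses, with the line of equality dotted. Orange points are genes whose steps differ by the interaction test and purple rings the called mitosis genes, which lie left of 0 and above 0, away from the diagonal cloud.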

How the data were processed

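The series holds 15 libraries of polyadenylated RNA from Molm-13 cells, in 5 groups of 3. Per the labels' protocols, RNA came from Trizol extraction, was captured on oligo(dT) beads and was read on an Illumina HiSeq2500. Tools named in the submitters' processing notes are HISAT2, StringTie 1.3.1, edgeR, DESeq2 and fastp 0.18.0. Genome build, annotation and strand use were not given in the sources used here. Reads of antisense or overlapping genes can therefore not be separated. The authors deposited estimated counts for each gene, 9.62% to 11.3% of which are not whole (tolerance 0.01) and were rounded. The deposited TPM values, which keep no depth, were used for 1 alternative only. Total counts were 10.9 to 16.97 M (M for mega) per library, and error statements for a single value cover counting only.

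Genes passed edgeR's filterByExpr (minimum count 10, minimum total 15), TMM set the effective sizes, and 1 quasi-likelihood fit over the 5 groups, with 10 residual degrees of freedom, gave all contrasts (edgeR 4.0.16, R 4.3.3, limma 3.58.1), after a check on simulated data. The SE of a log2 fold change was its size over the square root of the quasi-F statistic. The threshold of a call was 0.05 after Benjamini-Hochberg adjustment over all genes. Alternatives were DESeq2 size factors, upper quartile factors, no filter, at least 5 CPM, DESeq2 1.42.0, limma voom, limma on log2(TPM + 1), only the groups compared, a replicate block and each library left out. No 2 libraries agreed within sampling noise. Genes were named by rule: FLT3, the 10 largest rises and falls with at least 10 CPM and no overlap, the 5 largest differences in CPM each way, the 3 called members of smallest p each way in each of 42 lists with at least 5 CPM, and any interferon or histone member. Some genes that the rule named are not reported here. Members and lists were chosen with earlier results of these data known. Promoters came from RefSeq.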

Additional observations from a re-analysis of the deposited data

Results flagged for a closer look

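Of 281 genes named by rule and reported here, 34 had a dose step that differed between cells with 4 days of cytarabine and cells with 3 days of cytarabine then FL-Fc-DM1, by the interaction term of edgeR's quasi-likelihood fit (adjusted p from 7.6e-08 to 0.0468 over all genes tested). Each value is the log2 fold change, 1 against 0.5 µM, without FL-Fc-DM1 minus that after it. In 25 genes it was negative and in 9 positive, and in 13 genes the 2 steps had opposite signs. Among genes of the cell cycle, replication and repair it was -1.20 for CDC20, -0.80 for TOP2A, -0.72 for CDK1, -0.71 for CHEK1, -0.48 for FANCD2, -0.45 for BRCA1 and -0.27 for MCM3. Among tubulins it was -0.58 for TUBA1A, -0.44 for TUBA1B and -0.27 for TUBB, with reads that near-identical copies can share. Among granule, complement and adhesion genes it was -0.62 for RNASE2, -0.57 for PLXNC1, -0.45 for C3, -0.39 for ITGA6, -0.32 for CTSG and -0.21 for LYZ. Among genes of antigen presentation it was -0.56 for HLA-DRA, -0.19 for CD74 and -0.15 for B2M. Other negative values were -0.85 for PHGDH, -0.70 for H2AC11, -0.51 for CTSH, -0.44 for SOX4, -0.42 for BMF and -0.19 for SCD. The positive values, where the step without FL-Fc-DM1 was the higher one, were 0.42 for CXCL8, 0.35 for BST2, 0.34 for HMOX1, 0.28 for TXNIP, 0.25 for CYP27A1, 0.23 for PIM1, 0.18 for HLA-B, 0.18 for IMPDH2 and 0.16 for ITGAL. BRCA1, PHGDH and SOX4 lost their own call between cytarabine doses when some library was left out. Removal of cytarabine and addition of FL-Fc-DM1 cannot be told apart in these groups.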

How the results depend on the processing

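No called gene that the text names changed direction under any alternative tried. With limma on log2(TPM + 1) the counts between cytarabine doses were 1354 genes called, 716 higher and 638 lower, with 64 at least 2-fold apart, and 142 genes differed between the dose steps. A mean of at least 5 CPM left 10199 genes to test, of which 67 were called at least 2-fold apart. Of the 175 such genes in the main fit, 141 lay in the quartile of lowest level, up to 8.57 CPM. The cause of these changes was not tested. Leaving out 1 library in turn gave 1689 to 2090 genes called, 816 to 1003 higher, 873 to 1099 lower, 115 to 161 at least 2-fold apart, 2772 to 3437 called between doses after FL-Fc-DM1 and 254 to 494 with different steps. With a replicate block 2422 genes were called between cytarabine doses, 3594 after FL-Fc-DM1 and 438 for the difference. Between cytarabine doses, same-numbered libraries correlated at -0.03, 0.11 and 0.05 in their deviations from the group means. There 3 of 6 libraries correlated best with their own number, which showed no clear pairing. Between doses after FL-Fc-DM1 the values were 0.056, 0.029 and -0.054. Between libraries without and after FL-Fc-DM1 they were 0.053, 0.078 and 0.051 at the lower dose and 0.092, 0.054 and 0.038 at the higher. At each dose these small values lay above those of all differently numbered libraries. Whether the numbers pair samples across the FL-Fc-DM1 groups was not tested. The other alternatives gave 2169 (DESeq2) to 2534 (no filter on low counts) called genes. Over the 288 named genes and all alternatives 4042 values kept their side of the threshold, 190 lost the call and 28 gained it. The median of the lists for LXR, MHC class I, MHC class II, STAT5 output, complement, ribosomal proteins, integrins, mitochondrial genes and histone mRNA processing changed sign under some alternative. Depth limits the histone and other low genes, where a fold rests on few reads.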

Other observations

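DCANP1, a gene named for dendritic cells, met the rule for the largest rises but rests on few reads. It stood at 7.70, 4.23 and 0 CPM at 0.5 µM and 8.71, 9.43 and 19.8 CPM at 1 µM and lost its call by DESeq2, by TPM and when a library was left out. IFIT1, an interferon-stimulated effector, rose between cytarabine doses (log2 1.38 ± 0.26, adjusted p = 4.26e-04, edgeR) and was not called between doses after FL-Fc-DM1 (log2 0.38 ± 0.32, adjusted p = 0.413), and the difference between these steps was 1.00 ± 0.42 (adjusted p = 0.231).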
